A study of Mus musculus with 4 samples.

Results

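The genes described here are 10 Wnt ligand genes, Wnt2, Wnt4, Wnt5a, Wnt5b, Wnt6, Wnt7a, Wnt7b, Wnt9a, Wnt10a and Wnt11, taken by gene symbol from a mouse gene count table of 56748 genes that holds 19 Wnt ligand genes in all. Bulk RNA sequencing measured lungs bearing metastases of 4T1-FLuc, a luciferase-labelled line of 4T1 mouse triple-negative breast cancer cells. The cells had been injected into the tail vein of female BALB/cJ mice 7 weeks old, so every group had received the tumor cells. Saline was given to the mice of 2 libraries. The mice of the other 2 libraries received cmLumiOpto/PARPi, that is, an adeno-associated virus inside exosomes coated with an anti-CD276 antibody, carrying the cmLumiOpto gene under a cfos promoter, with its light-producing substrate ViviRen, plus 50 mg/kg of olaparib, an inhibitor of PARP. Imaging followed the mice to week 3, and the day on which lungs were taken for RNA was not given in the sources used here. cmLumiOpto couples a luciferase to a light-gated channel in the inner mitochondrial membrane. The sample labels name PBS for the control and tumor cells taken from the lungs as the material, whereas the study's methods name saline and lysed lung tissue. The labels do not say which mice the libraries came from, so that p-values measure the spread between these 4 libraries.

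Wnt proteins are secreted, lipid-modified ligands that act over short distances between neighboring cells. In the canonical branch they bind a Frizzled receptor together with Lrp5 or Lrp6, which spares beta-catenin from the destruction complex and lets it act with TCF/LEF factors on target genes. Other ligands act mainly without beta-catenin, through receptors such as Ror2, on cell polarity, migration and calcium. In the lung, epithelial and mesenchymal cells exchange Wnt ligands during branching and repair, and in breast cancer the pathway is studied for its role in tumor cell growth, stemness and spread.

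Gene counts summed to between 15263375 and 16755228 per library, and 3 counts, taken as the detection floor, corresponded to 0.173 to 0.204 CPM (counts after TMM scaling, a correction for library size and composition, to a common library size). Intervals and floors of counts cover counting error only. Libraries of the same group differed by more than counting noise, with a chi-square over degrees of freedom of 24.1 for saline and 41.1 for cmLumiOpto/PARPi. The libraries also differed in RNA of lung cell markers. Summed markers of airway club and ciliated cells, among them Scgb1a1 and Scgb3a2, were 1154 and 81.2 CPM with saline and 5694 and 2986 CPM with treatment. Scgb1a1 made up most of each sum, and saline replicate 2 stood apart as the lowest. Keratins and other epithelial markers listed for 4T1 cells, led by Krt8 and Krt18, were at 3011 and 3390 CPM with saline. With treatment they were at 2690 and 3849 CPM. How much of this RNA came from tumor cells and how much from lung epithelium was not tested. None of the markers of the 11 cell type lists was at 0 in every library. Tests were made on all 15167 genes with enough counts, among them all 10 ligand genes, by the quasi-likelihood test of edgeR, and p-values were adjusted over all of them by Benjamini and Hochberg's method. Differences are treated minus saline throughout.

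The summed level of the 10 ligand genes was lower in both treated libraries than in both saline libraries. It was 518 CPM in saline replicate 1, 588 in saline replicate 2, 319 in treated replicate 1 and 367 in treated replicate 2, giving 553 ± 50.1 against 343 ± 33.8 CPM (SD, n = 2 each) and a treated-to-saline ratio of 0.620. Divided by gene length, which allows genes to be compared with each other, the sum was 116 and 130 CPM per kb with saline and 76.3 and 83.7 CPM per kb with treatment. Wnt7b and Wnt4 accounted for 79.2% and 20.0% of the drop on this scale. Without both of them the other 8 genes summed to 26.6 and 22.1 CPM per kb with saline and to 26.8 and 21.2 CPM per kb with treatment, a ratio of 0.986. These genes were set aside after their values had been seen, so the remaining sum is a description. In bulk tissue, fewer cells that express a gene and less of its RNA per cell cannot be told apart.

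**Figure D1:**
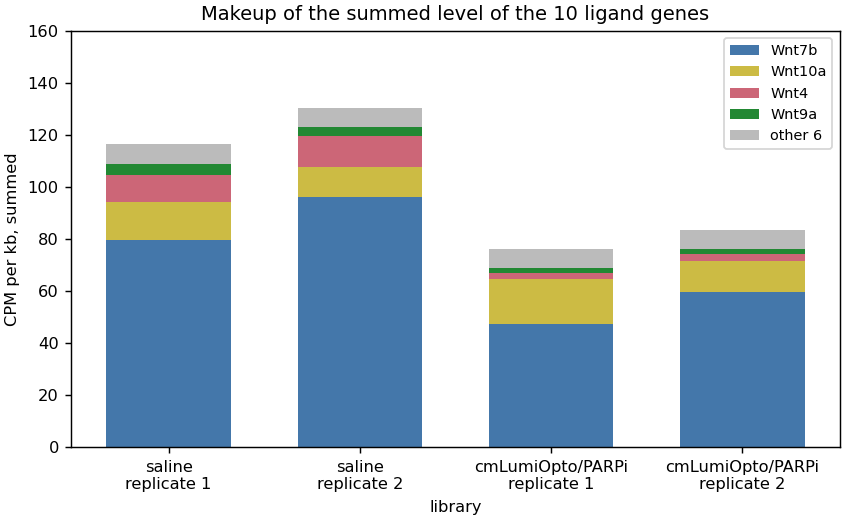
Stacked bars give the summed level of the 10 Wnt ligand genes in CPM per kb of gene length for each of the 4 libraries, split into Wnt7b, Wnt10a, Wnt4, Wnt9a and the other 6. The saline bars reach 116 and 130 and the treated bars 76.3 and 83.7, and Wnt7b fills most of every bar.

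No ligand gene, and no gene at all, had an adjusted p under 0.05 in edgeR's quasi-likelihood test (0% of the 15167 genes tested). DESeq2 called 965 genes and edgeR's likelihood ratio test 865, with Wnt4 and Wnt7b among the calls of both. Of the 10 ligand genes, 4 were lower in both treated libraries than in both saline libraries (Wnt4, Wnt7b, Wnt9a and Wnt11), against 27.8% of all genes tested. Wnt6 and Wnt7a, 2 of the 10, were higher in both treated libraries, against 27.4% of all genes, and the groups overlapped for the other 4. At an unadjusted p under 0.05 there were 3 lower ligand genes (Wnt4, Wnt7b and Wnt9a; 12% of all genes) and 1 higher (9.21% of all genes), namely Wnt6, which had 2 and 9 counts with saline and was tested only because its treated counts were high enough, so that its p is no support for a difference. The median log2 fold change was -0.33 over the ligand genes and 0.02 over all genes tested, and 6 of the 10 were negative. With a family this small, these shares lie too near those of all genes to describe the ligands as a group, and the values differ gene by gene. After a correction fitted jointly on gene length and mean level, the higher count was 1, since Wnt7a then overlapped. Lower genes were then 4 of 5 with separate groups (80%) instead of 4 of 6 (66.7%), against 51.6% and 50.3% over all genes tested. Without saline replicate 1 the higher count was 4, with Wnt10a and Wnt5b added, and the lower count 5, with Wnt2 added, but 41.2% and 39.1% of all genes were then higher and lower. An exact permutation of 2 libraries against 2 gives no two-sided p below 0.333.

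**Figure D2:**
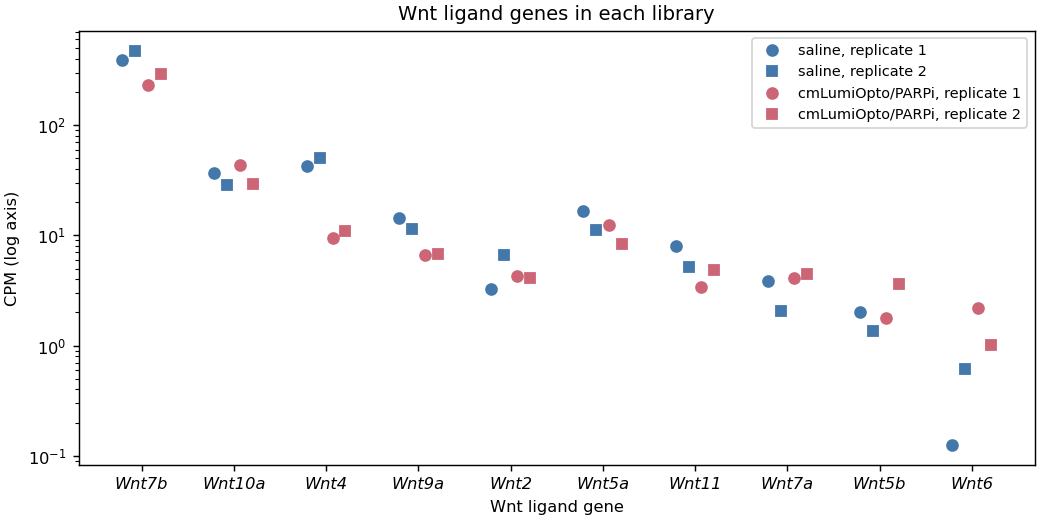
Each point is the level of a Wnt ligand gene in CPM (log axis) in 1 library, with saline in blue, cmLumiOpto/PARPi in red, circles for replicate 1 and squares for replicate 2. Wnt4, Wnt7b, Wnt9a and Wnt11 have both red points below both blue points, and Wnt6 and Wnt7a have both red points above.

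Wnt4, a ligand of mammary duct branching that can signal with or without beta-catenin, differed most clearly. Its level was 42.8 CPM in saline replicate 1, 50.3 in saline replicate 2, 9.38 in treated replicate 1 and 10.9 in treated replicate 2. Replicates of a group lay close together and the groups were far apart, with a mean 4.59-fold higher in the saline libraries. The log2 fold change was -2.20 (SE 0.19, 95% interval -2.67 to -1.73), the gene stood at rank 2 of 15167 by p, and the adjusted p was 0.138. The call depended on the fit: adjusted p was 9.56e-14 with DESeq2, 4.33e-12 with edgeR's likelihood ratio test, 1.6e-17 without the filter on low counts and 0.0263 without saline replicate 1, and it ranged from 1.6e-17 to 0.267 over 14 alternatives, while the log2 fold change stayed between -2.33 and -2.09. Wnt4 (ENSMUSG00000036856) lies on the plus strand of GRCm38 at chr4:137277489-137299726.

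Wnt5a, a ligand known for planar cell polarity through Ror2 and for shaping the distal lung, was at 16.6 and 11.1 CPM with saline and at 12.4 and 8.42 CPM with treatment. The groups overlapped, and replicate 1 was the higher library in each. Its log2 fold change was -0.41 (SE 0.32, 95% interval -1.20 to 0.37, adjusted p = 0.484). Wnt5b, the close paralog of Wnt5a, was at 2.01 and 1.36 CPM with saline and at 1.78 and 3.61 CPM with treatment. Only treated replicate 2 stood above the rest, and the interval of its log2 fold change of 0.67 ran from -0.64 to 1.98. Per kb, Wnt5a exceeded Wnt5b 2.81-fold, 2.76-fold and 2.35-fold in saline replicates 1 and 2 and treated replicate 1, whereas in treated replicate 2 the ratio was 0.792. Wnt5b overlaps Fbxl14 on the opposite strand over 2963 bases, and Fbxl14 had 928 to 1058 counts per library where Wnt5b had 20 to 60. Strand use in counting was not given in the sources used here, so Wnt5b is uncertain.

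Wnt11, which directs convergent extension and kidney bud outgrowth, mostly without beta-catenin, was at 8.03 and 5.18 CPM with saline and at 3.40 and 4.87 CPM with treatment. The groups did not overlap, but saline replicate 2 and treated replicate 2 were only a little apart. Its log2 fold change was -0.68, with an interval from -1.62 to 0.27 and an adjusted p of 0.356.

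Wnt7b, an epithelial ligand that drives growth of the neighboring mesenchyme in the developing lung and acts through beta-catenin, was by far the most abundant of the family. Its level was 390 CPM in saline replicate 1, 471 in saline replicate 2, 232 in treated replicate 1 and 293 in treated replicate 2. Both treated libraries were below both saline libraries, and the gap between the groups was wider than the one within either group. The means were 431 ± 57.1 and 263 ± 43.6 CPM (SD, n = 2 each), 1.64-fold higher with saline. The log2 fold change was -0.71 (SE 0.19, 95% interval -1.17 to -0.25) with an adjusted p of 0.145. Adjusted p was 0.0216 with DESeq2, 0.0484 with the likelihood ratio test and 0.00438 without the filter on low counts, and over 14 alternatives it ranged from 0.00438 to 0.486. The log2 fold change was -0.49 after the joint correction for gene length and mean level. Over all alternatives it lay between -0.92 and -0.49.

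Wnt7a, the paralog of Wnt7b known for limb and female reproductive tract patterning, was far scarcer. It was at 3.83 and 2.04 CPM with saline and at 4.15 and 4.45 CPM with treatment. The treated libraries were both above the saline libraries, by little in the case of saline replicate 1. Its log2 fold change of 0.55 had an interval from -0.53 to 1.62 and an adjusted p of 0.498. Per kb, Wnt7b exceeded Wnt7a 66.1-fold and 149-fold with saline and 36.2-fold and 42.7-fold with treatment.

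Wnt9a, known for its part in joint formation, was at 14.3 and 11.4 CPM with saline and at 6.62 and 6.80 CPM with treatment. The treated libraries nearly coincided, below both saline libraries. The means were 12.8 ± 2.06 and 6.71 ± 0.126 CPM (SD, n = 2 each), 1.91-fold higher with saline, and the log2 fold change was -0.94 (SE 0.26, 95% interval -1.57 to -0.30, adjusted p = 0.154). Wnt9a did not pass the threshold under any of 14 alternatives, with a log2 fold change between -1.13 and -0.78.

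Wnt10a, a ligand of tooth and skin appendage development that acts through beta-catenin, showed no separation of the groups. It was at 36.4 and 28.8 CPM with saline and at 43.2 and 29.4 CPM with treatment. Replicate 1 was higher than replicate 2 in each group and the groups overlapped. Its log2 fold change was 0.16 with an interval from -0.44 to 0.75, and its sign turned under 4 alternatives, so no direction can be given. The interval leaves out a change as large as that of Wnt4.

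Wnt6, another epithelial ligand, was near the floor with saline. Its raw counts were 2 and 9 with saline and 38 and 17 with treatment, or 0.125 and 0.613 CPM against 2.19 and 1.02 CPM. Saline replicate 1 was under 3 counts, and the gene entered the test only through the treated libraries. The ratio of summed levels was 4.50, with a 95% counting interval from 2.33 to 9.54. The fitted log2 fold change was 2.12 (SE 0.84, 95% interval 0.04 to 4.20, adjusted p = 0.231) and moved between 1.36 and 3.59 over the 13 alternatives that tested the gene. Wnt6 and Wnt10a lie on the same strand of chromosome 1 with 6193 bases between them, and per kb Wnt10a exceeded Wnt6 258-fold and 41.6-fold with saline and 17.6-fold and 25.5-fold with treatment.

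Wnt2, the mesenchymal ligand that helps specify the lung in the embryo, was at 3.26 and 6.68 CPM with saline and at 4.32 and 4.09 CPM with treatment. The saline libraries were the lowest and the highest of the 4, with the treated libraries between them. Its log2 fold change of -0.24 (95% interval -1.32 to 0.84, adjusted p = 0.780) became 0.35 without saline replicate 2.

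The genes lie apart in the genome but for the pair on chromosome 1. In GRCm38, Wnt6 spans chr1:74771892-74785322 and Wnt10a chr1:74791516-74804179 on the plus strand. Also on the plus strand are Wnt5a at chr14:28504750-28527448, Wnt9a at chr11:59306928-59333552 and Wnt11 at chr7:98835112-98855195. Wnt7b lies on the minus strand at chr15:85535437-85582473. The minus strand of chromosome 6 holds Wnt2 at chr6:17988940-18030585, Wnt7a at chr6:91363981-91411363 and Wnt5b at chr6:119432531-119544347, far from each other. Opposite-strand genes that overlap Wnt5a (Gm2670), Wnt6 (Gm29539), Wnt7b (AU022754) and Wnt11 (Gm8398) had at most 17 counts in any library.

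**Figure D3:**
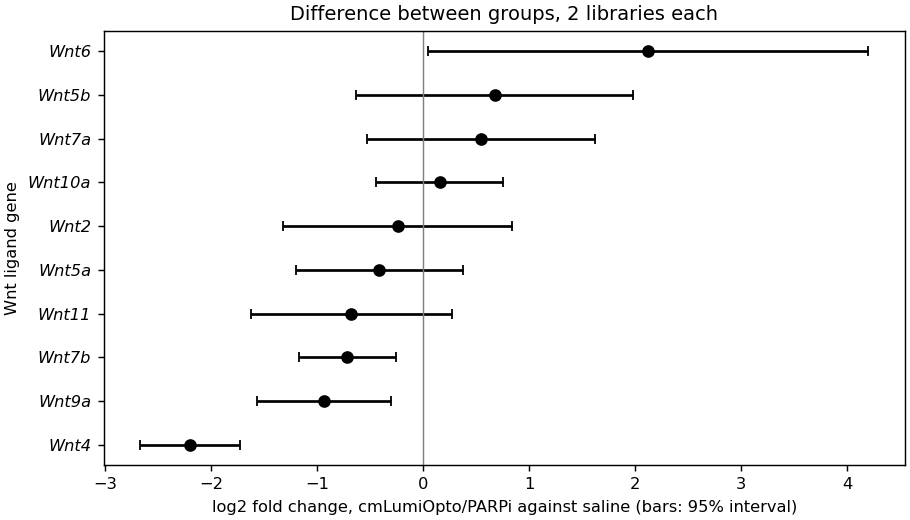
Points give the log2 fold change of each Wnt ligand gene, cmLumiOpto/PARPi against saline with 2 libraries each, and bars give its 95% interval from edgeR's quasi-likelihood fit. The intervals of Wnt4 (-2.67 to -1.73), Wnt9a and Wnt7b lie below 0, that of Wnt6 (0.04 to 4.20) lies just above 0, and the other 6 include 0.

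Ranked by mean level per kb, the leading 5 ligands were the same in both groups, in the order Wnt7b, Wnt10a, Wnt4, Wnt9a and Wnt2, and the spacing around Wnt4 differed. With saline, Wnt7b led with 79.7 and 96.2 CPM per kb. Wnt10a (14.8 and 11.7) and Wnt4 (10.2 and 12.0) followed with overlapping ranges, and Wnt9a (4.30 and 3.42) came next. Wnt2, Wnt5a and Wnt11 overlapped between 1.25 and 2.96 CPM per kb, and Wnt7a, Wnt5b and Wnt6 were lowest, of which Wnt7a and Wnt5b overlapped. With treatment Wnt7b still led with 47.3 and 59.9 CPM per kb, but Wnt4 (2.24 and 2.60) was separate from Wnt10a (17.5 and 11.9), which exceeded it 7.83-fold and 4.58-fold where the ratios with saline were 1.45 and 0.972. Wnt7b likewise exceeded Wnt4 7.81-fold and 8.02-fold with saline and 21.1-fold and 23.1-fold with treatment. Below Wnt4, Wnt9a and Wnt2 the remaining 5 genes had overlapping ranges between neighbors. As a share of the summed level per kb, Wnt4 made up 8.76% and 9.20% with saline and 2.93% and 3.10% with treatment, and Wnt7b 68.4% and 73.8% against 62.0% and 71.5%.

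The sequences just before the annotated starts are shown for the genes whose groups separated and for which RefSeq (GRCm38.p6) gave a promoter: Wnt4, Wnt9a and Wnt11, lower with treatment, and Wnt6 and Wnt7a, higher. RefSeq promoters were found for 7 of the 10 genes, not for Wnt5a, Wnt7b and Wnt10a. The sequences run 5′ to 3′ on the coding strand, which is the plus strand for Wnt4, Wnt9a, Wnt11 and Wnt6 and the minus strand for Wnt7a, and end 1 base before the gene's start in GENCODE M21. Capitals mark 4 motifs searched on both strands: the TATA box core TATAAA, the TCF/LEF core CTTTGA, the GC box GGGCGG and the CCAAT core. Neighboring GC boxes can overlap each other.
Wnt4, chr4:137277385-137277488: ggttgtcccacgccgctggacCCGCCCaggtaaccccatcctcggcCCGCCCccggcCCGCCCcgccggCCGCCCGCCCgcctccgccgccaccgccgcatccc
Wnt9a, chr11:59306680-59306927: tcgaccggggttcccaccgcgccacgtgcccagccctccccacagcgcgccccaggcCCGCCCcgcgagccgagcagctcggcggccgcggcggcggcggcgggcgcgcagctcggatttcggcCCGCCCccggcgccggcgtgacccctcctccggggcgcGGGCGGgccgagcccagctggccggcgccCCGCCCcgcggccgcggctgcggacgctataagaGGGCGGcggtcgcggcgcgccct
Wnt11, chr7:98834862-98835111: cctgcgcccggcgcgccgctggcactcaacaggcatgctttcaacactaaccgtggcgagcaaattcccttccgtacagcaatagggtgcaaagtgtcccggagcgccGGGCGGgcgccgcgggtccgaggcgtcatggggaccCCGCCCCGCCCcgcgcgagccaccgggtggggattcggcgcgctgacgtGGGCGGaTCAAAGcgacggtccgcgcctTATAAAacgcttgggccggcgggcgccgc
Wnt6, chr1:74771642-74771891: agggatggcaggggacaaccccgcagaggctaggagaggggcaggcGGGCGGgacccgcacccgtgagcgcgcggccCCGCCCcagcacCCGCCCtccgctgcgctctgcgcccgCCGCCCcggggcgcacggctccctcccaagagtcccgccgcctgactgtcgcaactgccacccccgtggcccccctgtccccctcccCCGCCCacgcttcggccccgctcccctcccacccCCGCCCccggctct
Wnt7a, chr6:91411364-91411603: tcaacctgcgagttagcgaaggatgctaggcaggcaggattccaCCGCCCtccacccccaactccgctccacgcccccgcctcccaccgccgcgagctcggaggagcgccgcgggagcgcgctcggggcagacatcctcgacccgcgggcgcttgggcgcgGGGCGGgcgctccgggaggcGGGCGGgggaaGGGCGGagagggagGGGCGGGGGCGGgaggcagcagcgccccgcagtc

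All 5 are rich in G and C, with 85.2%, 84.4%, 70.8%, 79.6% and 77.6% G or C in the 250 bases before the RefSeq start of Wnt4, Wnt9a, Wnt11, Wnt6 and Wnt7a, against a median of 52.4% over 32851 promoters. These windows of 250 bases hold 44, 48, 37, 28 and 34 CG dinucleotides, against a median of 6. Of the Wnt4 window only 104 bases are printed above, because the rest lies within the gene in GENCODE M21. GC boxes occur in each of the 5, as in 32.7% of all promoters. Wnt11 alone of the 5 holds TATAAA (12.4% of all promoters) and, on the opposite strand, CTTTGA (13.8% of all promoters), and no CCAAT (33.8% of all promoters) was found in any of the 5. The shares of G and C in Wnt6 and Wnt7a, the higher genes, lay between those of the lower genes. A match to these letters is a description and not evidence of a bound factor.

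The nearest genes to Wnt4 in pattern, by Euclidean distance of mean-centered log2 CPM over the 4 libraries, were Ecel1 (0.199), Slit3 (0.257), Lrrn2 (0.352), Pappa (0.438) and Cdh2 (0.455), with Pearson's r between 0.978 and 0.998. Slit3, a secreted guidance ligand, was at 79.5 and 90.5 CPM with saline and at 20.3 and 18.2 CPM with treatment, and Ecel1 was at or below 3 counts in both treated libraries. With only 4 libraries, 287 of the 15166 other genes had r above 0.99 to Wnt4, so the likeness is a description.

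The other 9 Wnt ligand genes were scarce. Wnt10b had 53 to 91 counts per library, and its log2 fold change was 0.24 (adjusted p = 0.734), and Wnt2b had 12 to 28 counts and a difference of -0.56 on the log2 scale (adjusted p = 0.630), both with overlapping groups. Wnt3a, which activates beta-catenin and lies 16175 bases from Wnt9a on the opposite strand, was too low to be tested. Its counts were 4 and 0 with saline and 18 and 8 with treatment, a ratio of 5.86 with a counting interval from 2.03 to 23.1. Wnt1, Wnt9b, Wnt8b and Wnt3 had at most 8 counts in any library, and Wnt8a and Wnt16 had none.

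The rest of the pathway, 98 genes in lists of receptors, regulators and effectors, lay mostly lower with treatment. Of the 85 tested, 49 (57.6%) were lower in both treated libraries, 2 (2.35%) were higher and 34 overlapped, against 27.8% and 27.4% of all genes tested, with a median log2 fold change of -0.36. None had an adjusted p under 0.05 in edgeR's quasi-likelihood test. After the joint correction for gene length and mean level 46 were lower and 8 higher. The share of lower genes among those with separate groups then fell from 96.1% to 85.2% (50.3% and 51.6% over all genes). The higher count rested on few genes, among them Wif1 with its low saline counts. It was 15 without saline replicate 1, 6 without saline replicate 2, 4 without treated replicate 1 and 18 without treated replicate 2. Of all genes tested 41.2%, 37%, 36.8% and 42.3% were then higher, in the same order. The lower count with a library left out was 56 to 59 of the 85, against 36.9% to 39.4% of all genes. Long genes were lower with treatment over the whole table, with a Spearman's rho between log2 fold change and gene length of -0.37 across genes, which are not independent replicates.

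Among the genes of Wnt secretion and extracellular handling, 3 of 8 tested were lower in both treated libraries and none higher. Over all genes tested 27.8% were lower and 27.4% higher, which is the background for this list and those below. Porcn, which adds the lipid, was at 8.65 and 7.15 CPM with saline and at 7.25 and 13.9 CPM with treatment. Wls, which carries the ligands to the surface, had a log2 fold change of -0.14, and the glypican Gpc1, a surface proteoglycan, one of -0.60 (adjusted p = 0.164). Of the Frizzled receptors and co-receptors 10 of 14 tested were lower and none higher, with a median log2 fold change of -0.50. Lrp6, the co-receptor of the canonical branch, was at 122 and 117 CPM with saline and at 79.0 and 76.7 CPM with treatment (log2 fold change -0.62, adjusted p = 0.138). Ror2, the receptor of Wnt5a, was at 11.4 and 9.40 CPM with saline and at 4.20 and 3.85 CPM with treatment (log2 fold change -1.36, adjusted p = 0.138). Fzd1 was at 85.0 and 57.9 CPM against 32.0 and 37.1 CPM (log2 fold change -1.05, adjusted p = 0.138). The groups were well apart for Lrp6 and Ror2. For Fzd1 the saline libraries differed from each other by more than the gap between the groups.

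R-spondins, their receptors and the ligases that remove Frizzled gave 3 of 7 tested lower and none higher. These were Lgr5 (log2 fold change -2.11), Lgr6 (-1.25) and the ligase Znrf3 (-0.88). Lgr5 had 116 and 71 counts with saline and 12 and 35 with treatment, and its interval ran from -3.59 to -0.63. Lgr6 was at 192 and 329 CPM with saline and at 98.7 and 120 CPM with treatment. Secreted and surface antagonists gave 5 of 8 tested lower, among them Sfrp2 (-1.62), Sfrp1 (-0.72) and Kremen1 (-0.62), and 1 higher. Sfrp2 was at 13.7 and 33.8 CPM with saline and at 8.35 and 7.04 CPM with treatment. For Lgr6 and Sfrp2 the saline libraries differed by more than the gap between the groups. The higher antagonist was the secreted inhibitor Wif1, with 4 and 2 counts under saline and 35 and 22 under treatment. It was tested only through its treated counts. In the Dishevelled and destruction complex list 10 of 13 were lower and none higher, with log2 fold changes of -0.85 for the kinase Gsk3b, -0.67 for the scaffold Apc and -0.58 for Csnk1e. The TCF/LEF factors and cofactors of beta-catenin gave 7 of 14 lower and none higher, with the smallest p for Bcl9 (-0.88), Ep300 (-0.53) and Crebbp (-0.59). Of the canonical feedback targets 4 of 10 tested were lower and none higher, and these include Lgr5 and Znrf3, already counted in the R-spondin list. Another was Axin2, a direct target and negative regulator, at 12.5 and 12.1 CPM with saline and at 7.94 and 6.92 CPM with treatment (log2 fold change -0.73, adjusted p = 0.188). Planar cell polarity and calcium effectors gave 9 of 17 lower and 1 higher, the cadherin Celsr2 (0.80, adjusted p = 0.377). Among the lower ones the smallest p were those of Nfatc1 (-0.66), Prkca (-0.55) and Prickle1 (-0.61).

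**Figure D4:**
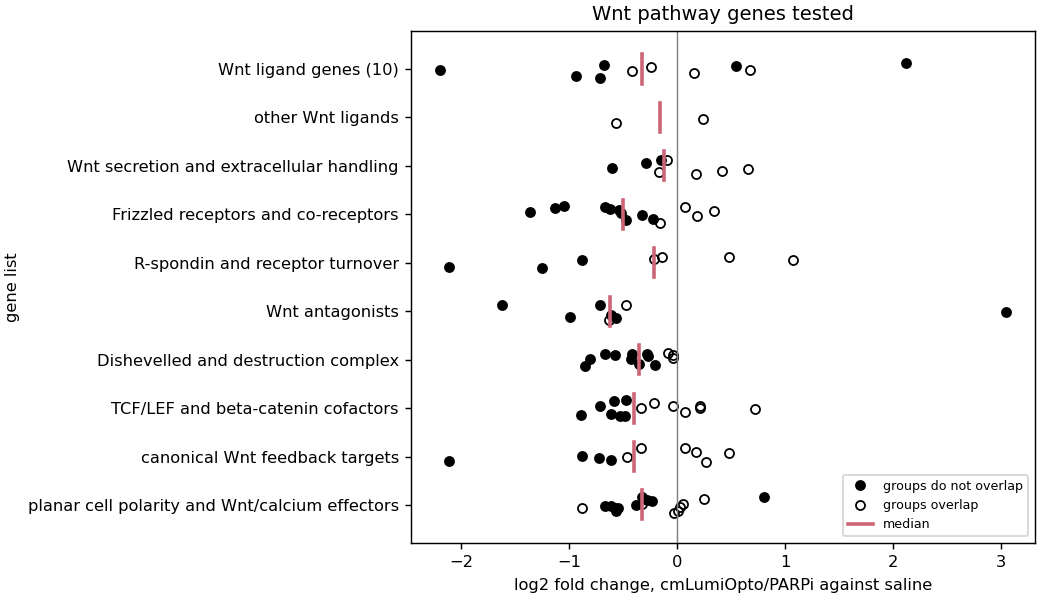
Each point is the log2 fold change of a tested gene, cmLumiOpto/PARPi against saline, in 1 list of Wnt pathway genes; filled points have groups that do not overlap, open points overlap, and red bars are list medians. The median is -0.33 for the 10 ligand genes, -0.50 for receptors and co-receptors and -0.62 for antagonists, and the ligand genes spread from -2.20 (Wnt4) to 2.12 (Wnt6).

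Markers of several cell types also differed between the groups. Fibroblast markers, led by Col1a1 and Col1a2, summed to 3684 and 2494 CPM with saline and to 1120 and 1223 CPM with treatment, a ratio of 0.379 with 5 of 6 genes lower and Tcf21 higher. This is the direction of Wnt4, Wnt7b, Wnt9a and Wnt11. Alveolar type 2 markers, led by Sftpc and Sftpb, summed to 1628 and 422 CPM with saline and to 7954 and 2815 CPM with treatment. The ratio was 5.25, with 5 of 6 genes higher and Abca3 lower. Alveolar type 1 markers, among them Ager and Hopx, had a ratio of 2.96 (5 of 6 higher). Airway markers had one of 7.03 (6 of 6 higher). Higher is also the direction of Wnt6 and Wnt7a. Epithelial markers listed for 4T1 cells had a ratio of 1.02, with 1 of 7 lower and none higher. Ratios of the other lists were 0.749 for macrophages, 0.853 for smooth muscle and pericytes, 1.20 for mesothelium, 1.33 for endothelium, 1.38 for neutrophils and 1.88 for T cells, each with at least 3 genes whose groups overlapped. The part of any of these cell types in the values of the ligand genes was not tested.

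**Figure D5:**
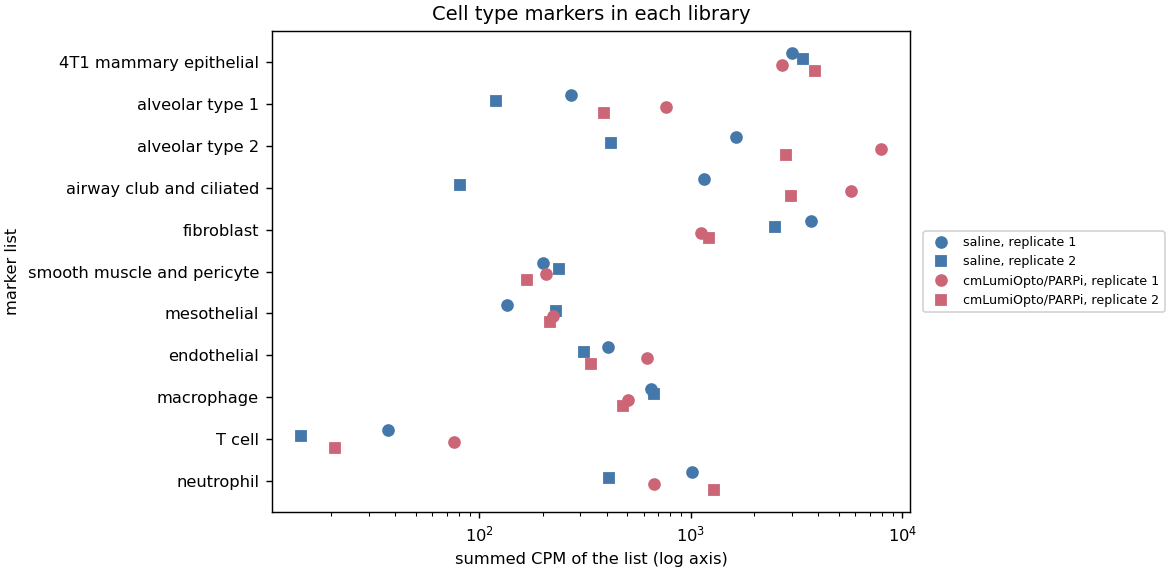
Points give the summed CPM (log axis) of each list of cell type markers in the 4 libraries, with saline in blue, cmLumiOpto/PARPi in red, circles for replicate 1 and squares for replicate 2. Fibroblast markers are lower and alveolar and airway markers higher in both treated libraries, while the epithelial markers listed for 4T1 cells overlap.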

How the data were processed

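The authors sequenced poly-A selected RNA, mapped the reads with HISAT2 and deposited read counts per gene, not normalized. The submitters' processing notes also name TopHat2 and the build mm39, whereas the methods name GRCm38; the counter was not given in the sources used here. Of 52073 genes matched to GENCODE M21 (GRCm38), 2.76% had the same position in the table and 96.8% the same span. The positions of the table are therefore not those of GRCm38, and the positions printed come from GENCODE M21 instead. Genes that overlap a ligand gene were found with the table's own positions. Gene lengths are those of the table.

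From the counts, edgeR 4.0.16 in R 4.3.3 gave TMM factors, CPM and quasi-likelihood tests of treatment against saline (filterByExpr minimum count 10, Benjamini-Hochberg threshold 0.05, no block). The standard error is the log2 fold change over the square root of F. Totals of 15263375 to 16755228 counts set the precision. Scripts were tested on simulated data. Alternatives were DESeq2 1.42.0, the likelihood ratio test, other scalings and filters, a loess length offset, the replicate block and leaving out each library. The offset (span 0.5) was fitted jointly on gene length and the gene's mean level, so it does not isolate length.

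Members, gene lists and markers were chosen with earlier results of these data known. Genes named besides the members were the other ligands and overlapping genes. Up to 3 genes per list and direction were named, with the smallest p among those with separate groups. Also named were the first 2 markers of a list and the 5 genes nearest to the ligand with the smallest p. Porcn, Tcf21 and Abca3 were chosen after their values were seen.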

Additional observations from a re-analysis of the deposited data

How the results depend on the processing

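The number of genes past the adjusted p threshold was 0 in the reported fit, 965 with DESeq2, 865 with the likelihood ratio test, 2000 without the filter on low counts, 1822 with the replicate block and 404 with the replicate block and the loess length offset. Wnt ligand genes past it numbered 2 with DESeq2, the likelihood ratio test, no filter or the replicate block (Wnt4 and Wnt7b in each) and 1 with the block and the length offset (Wnt4). Leaving out 1 library gave 0 to 31 genes and 0 to 1 ligand genes, the most without saline replicate 1 (Wnt4). The lone library left in a group was taken to vary like the other group. The remaining alternatives called 0 genes. Ligand genes higher in both treated libraries numbered 1 with the length offset, against 24.3% of all genes tested. With a library left out they numbered 3 to 4, against 36.8% to 42.3% of all genes. Lower ones numbered 4 to 5 in all settings, against 23.9% to 39.4% of all genes. The summed ratio lay between 0.577 and 0.684. Wnt10a turned to -0.0057 with the length offset and -0.022 with offset and block, and ranged from -0.15 to 0.39 with a library left out. Wnt2 ranged from -0.68 to 0.35 there. No other ligand gene changed sign. Wnt5b and Wnt6 were not tested at a minimum count of 50. The cause of these differences was not tested. Replicate numbers come from the labels, which do not say that a shared number marks a shared mouse, batch or day. Same-numbered libraries deviated together (Spearman's rho 0.298 across genes), and with 2 pairs of libraries this does not establish a pairing. With 2 libraries per group, counts near 3 (Wnt6, Wnt3a) carry no firm direction.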
